A study of Mus musculus with 5 samples.

Results

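NP_Nts is a type of sensory neuron in the dorsal root ganglion (DRG), named in the authors' annotation after Nts, the gene of the peptide neurotensin, and placed there among the non-peptidergic (NP) neurons. Its members were all cells that carry this label in the deposited annotation. There were 400 of them among 3352 cells, or among 3047 neurons. The study took lumbar DRGs from 5 untreated, wild-type adult C57BL/6 mice of both sexes, digested them with collagenase P and trypsin, and captured single cells with the Chromium 3′ assay. This assay counts unique molecular identifiers (UMIs), each of which stands for 1 captured RNA molecule. There was 1 condition, so cell types were compared, with the mice as replicates. The libraries were numbered from 1 to 5 in the order of the identifiers in the cell names, each was taken as 1 mouse, and none was tied to a sample label or a sex.

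Neurons of this kind are known as itch neurons. They carry signals from irritated skin to the spinal cord, where natriuretic polypeptide B, the product of Nppb, acts as one of the first messengers of the itch pathway, and somatostatin, the product of Sst, dampens spinal inhibition of it. Their nerve endings in the skin respond to products of immune cells, among them interleukin-31, which binds a receptor made of Il31ra and Osmr and signals through the kinase Jak1, and leukotrienes, which bind Cysltr2.

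The label fitted its markers. Of the 400 NP_Nts cells, 390 (97.5%) held at least 1 UMI each of Nts, Sst and Nppb. Nppb was present in 100% of them, Nts in 99.5% and Sst in 97.8%. Among the remaining cells, 8 lacked only Sst, 1 lacked only Nts, and 1 held Nppb alone. With a stricter minimum of 3 UMIs per gene, 94.5% of NP_Nts cells still held the complete set. In satellite glia, which should lack these genes, 1.2% of cells had a UMI of Nts, 2.81% one of Sst and 2.41% one of Nppb, at a median of 17729 UMIs per cell against 53136 in NP_Nts. When every cell of at least 20000 UMIs was thinned to that number, the shares in 388 NP_Nts cells were 98.2%, 96.6% and 99.2%, while in 65 satellite glia they were 0%, 0% and 1.54%.

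The authors clustered these same counts to define the types. The tests therefore give the size of each difference and how steady it was between mice, and are no independent evidence for the type. UMIs of a type were summed within each mouse, and levels are given as counts per 1000000 UMIs of that sum (CPM), with the mean and SD over 5 mice. A gene was called higher or lower at an adjusted p under 0.01 by edgeR's quasi-likelihood test with Benjamini-Hochberg adjustment, a change of at least 2-fold, and detection in no fewer than 25% of cells in the group with the higher level. This last condition was not set for genes lower than in the sum of all other neurons. Fold changes are on the log2 scale, with their standard error (SE). The p-values measure the spread between these 5 mice.

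NP_Nts was compared with the sum of the 2647 neurons of the 11 other neuron types, and then with each of the other non-peptidergic types, NP_Mrgpra3 (104 cells) and NP_Mrgprd (900 cells). Because NP_Mrgprd gives many of the other neurons, each of the 11 types was also given the same weight as an alternative, which set NP_Nts against the mean of the 11 types' log2 levels. That mean is pulled down by types with levels near 0, so it can lie below NP_Nts where the mean of the types' CPM lies above it, and the mean CPM over the types, with its SD over mice, is given beside it where the sign of a named gene differs. The libraries held between 13050375 and 88886919 UMIs. Mouse 1 gave only 10 NP_Nts and 4 NP_Mrgpra3 cells, and 7 barcodes occurred in more than 1 library, 3 of them with an NP_Nts cell.

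Nts, Sst and Nppb encode the peptides of the type and Il31ra its ligand-specific cytokine receptor chain, so the bases before their start sites are shown for comparison. They are the 250 bases before 1 start site per gene in RefSeq, build GRCm38.p6, 5′ to 3′ on the strand of the gene. The RefSeq span of a gene covers all its transcripts and can begin further upstream than this site: the whole Sst window, 114 bases of the Nppb window and 70 bases of the Il31ra window lie inside their gene's span, and none of the Nts window does. Capitals mark TGACGTCA (the cAMP response element, CRE), TATAAA (1 form of the TATA box) and TTCNNNGAA (the core bound by STAT factors), searched on both strands. Nts is on the minus strand, with the bases shown at chr10:102490419-102490668. Sst is on the minus strand, at chr16:23890845-23891094. Nppb is on the plus strand, at chr4:147985650-147985899. Il31ra is on the minus strand, at chr13:112580663-112580912.
Nts: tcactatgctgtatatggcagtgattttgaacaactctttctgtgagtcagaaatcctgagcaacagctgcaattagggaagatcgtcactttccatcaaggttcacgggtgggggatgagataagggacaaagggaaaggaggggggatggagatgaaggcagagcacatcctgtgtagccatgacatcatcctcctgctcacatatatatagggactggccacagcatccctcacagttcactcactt
Sst: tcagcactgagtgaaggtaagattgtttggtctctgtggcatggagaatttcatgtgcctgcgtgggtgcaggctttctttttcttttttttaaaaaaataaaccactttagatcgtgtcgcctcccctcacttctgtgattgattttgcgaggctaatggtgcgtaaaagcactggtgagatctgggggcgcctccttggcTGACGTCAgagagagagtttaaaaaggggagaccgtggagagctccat
Nppb: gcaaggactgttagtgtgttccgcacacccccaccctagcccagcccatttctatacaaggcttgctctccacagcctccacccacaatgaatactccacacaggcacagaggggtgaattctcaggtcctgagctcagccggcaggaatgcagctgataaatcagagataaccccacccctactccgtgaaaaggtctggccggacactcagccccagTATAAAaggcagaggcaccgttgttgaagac
Il31ra: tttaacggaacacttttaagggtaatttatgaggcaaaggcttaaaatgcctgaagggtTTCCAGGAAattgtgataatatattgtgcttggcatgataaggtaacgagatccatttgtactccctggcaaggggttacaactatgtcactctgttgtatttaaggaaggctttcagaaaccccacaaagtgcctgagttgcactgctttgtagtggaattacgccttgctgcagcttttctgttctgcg
The full CRE was found only in Sst among these 4, from base -48 to -41, and 1.55% of the 32851 RefSeq promoter windows of this length hold it. The letters TATAAA were found only in Nppb, from -31 to -26, against 12.4% of all windows. Other forms of the TATA box were not searched, and the Nts window holds the run tatatata, which is not marked. The STAT core was found only in Il31ra, from -191 to -183, against 7.02% of all windows. The 4 windows shared none of the 3 motifs, and a match in letters is not a bound site.

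The itch peptides Nts, Sst and Nppb were higher in NP_Nts than in other neurons in every mouse. Nts (chr10:102481756-102490418, minus strand), whose product neurotensin lowers body temperature and blood pressure, stood at 731, 1209, 906, 922 and 809 CPM in NP_Nts of mice 1 to 5, and at 0.252, 23.3, 1.01, 1.69 and 3.49 CPM in other neurons. Sst (chr16:23889573-23891342, minus strand) was at 786, 408, 984, 1577 and 1296 CPM, against 0 to 1.88 CPM in other neurons. Nppb (chr4:147985786-147987205, plus strand) was at 818, 369, 537, 705 and 711 CPM, against 0.0840 to 0.799 CPM. None of the genes overlapped between the groups, and mouse 2 was the lowest for Sst and Nppb and the highest for Nts. The log2 fold changes were 7.16 (SE 0.79, adjusted p = 1.57e-06) for Nts, 10.08 (SE 0.60, adjusted p = 1.6e-09) for Sst and 10.09 (SE 0.35, adjusted p = 8.4e-12) for Nppb. All 3 were called higher, beside 5.15% of all genes tested, but they are the markers of the type, which was clustered on these counts. Their calls give sizes only and are no evidence for the type. The list's remaining peptide, Grp (gastrin-releasing peptide), was too low to be tested, with 1 UMI in NP_Nts and 168 in other neurons, a ratio of pooled CPM of 18.1 (95% interval 3.21 to 719) in favour of other neurons. Nts was at 8.74 without mouse 2 and at 7.92 with the mouse as a replicate block.

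Within the type, the peptides spread over a wider relative range from cell to cell than Il31ra and Osmr did. The middle part of NP_Nts cells, from the 25th to the 75th percentile, held 19 to 61 UMIs of Nts, 27.8 to 88 of Sst and 19 to 47 of Nppb. For Il31ra the same range was 11 to 19 UMIs and for Osmr 13 to 23. These are raw counts over the cells of all 5 mice. Divided by the UMIs of each cell, each peptide kept a wider relative range than Il31ra and Osmr, but that of Nppb came closer to theirs. The cytokine receptors Il13ra1 and Il17ra were near the floor, at 0 to 2 and 0 to 1 UMIs, and do not enter this comparison. The highest single NP_Nts cells held 646 UMIs of Sst and 590 of Nts.

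Some cells with other labels carried the same set of genes. In 7 of the 2647 other neurons, all of them from mice 4 and 5, UMIs of Nts, Sst and Nppb occurred together, 4 of them labelled NP_Mrgprd and 1 each NF_Pvalb, PEP1_Slc7a3.Sstr2 and Th. Every one of these 7 cells also held 5 to 11 UMIs of Il31ra, 5 to 13 of Osmr and 58 to 125 of Jak1, and the 4 labelled NP_Mrgprd held 14 to 29 UMIs of Mrgprd besides. Whether they are droplets with more than 1 cell was not tested, and leaving them out moved the number of genes called higher from 623 to 622. It moved the log2 fold change of Sst against other neurons to 11.60 and that of Nppb to 10.91. The cells were chosen for holding these genes, so a rise was set by the choice. Nts outside the type was concentrated in mouse 2, where a single NF2_Ntrk2.Necab2 cell held 296 UMIs. This was 22.9% of the Nts UMIs of all cells outside NP_Nts, glia and endothelial cells included.

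**Figure D1:**
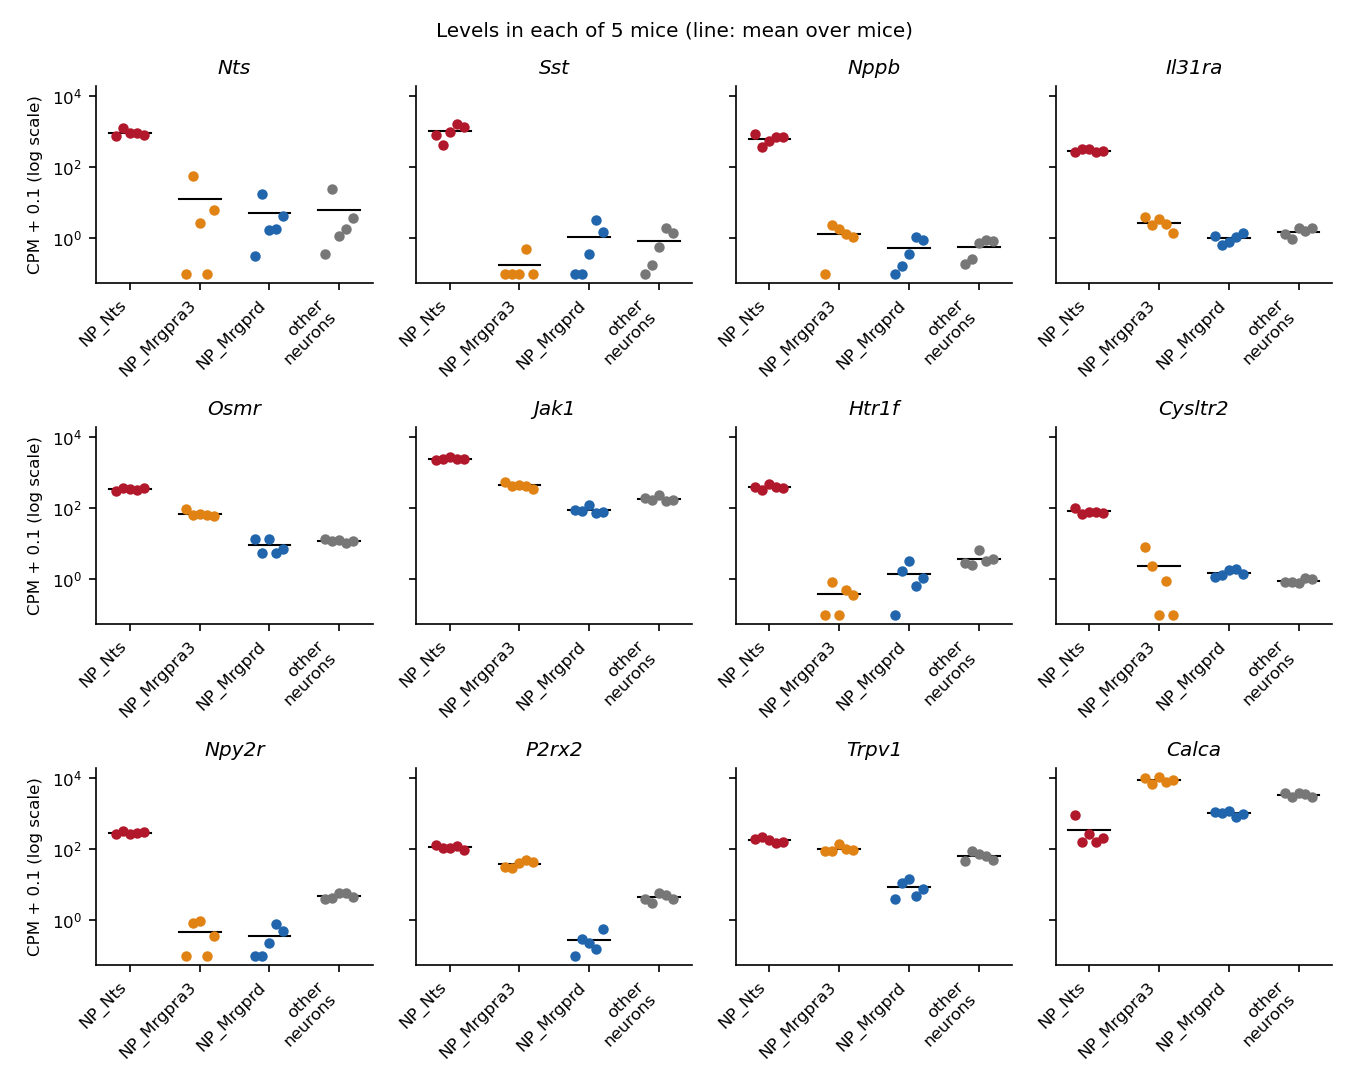
Level of 12 genes (CPM + 0.1 on a log axis) in each of the 5 mice for NP_Nts, NP_Mrgpra3, NP_Mrgprd and all other neurons, with a line at the mean over mice. The NP_Nts points of Nts, Sst, Nppb, Il31ra, Osmr, Jak1, Htr1f, Cysltr2, Npy2r and P2rx2 lie above every point of the other groups, and those of Calca lie below every point of NP_Mrgpra3 and of other neurons.

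The genes of the receptor for interleukin-31 and of its kinase were, like the peptides, higher in NP_Nts than in other neurons in every mouse. Il31ra, the ligand-specific chain, was at 257, 317, 308, 268 and 277 CPM in NP_Nts and at 0.869 to 1.84 CPM in other neurons (log2 fold change 7.57, SE 0.18, adjusted p = 2.32e-13). Osmr, the chain shared with the oncostatin M receptor, was at 305, 369, 334, 311 and 359 CPM against 10.5 to 13.3 CPM (4.81, SE 0.10, adjusted p = 1.56e-13). Jak1 was at 2191, 2396, 2744, 2427 and 2342 CPM against 156 to 230 CPM (3.72, SE 0.11, adjusted p = 2.28e-12). For each of them the lowest NP_Nts mouse lay above the highest value in other neurons.

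Across the 12 neuron types, NP_Nts ranked first for all 3 of these genes. For Il31ra the next type was PEP1_S100a11.Tagln2, at 5.01 ± 3.80 CPM (SD, n = 5) against 286 ± 26.0 CPM in NP_Nts. For Osmr the next was the same type, at 74.2 ± 17.2 CPM against 336 ± 28.3 CPM, followed by NP_Mrgpra3 at 69.0 CPM. For Jak1 the next was NF_Pvalb, a neurofilament type, at 604 ± 73.3 CPM against 2420 ± 203 CPM. None of these next types overlapped NP_Nts. Satellite glia carried no Il31ra UMI in 249 cells, which allows a share of up to 1.2%, but 65.5% of them had a UMI of Osmr.

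Of 16 cytokine receptor genes tested, 4 were higher and 4 lower in NP_Nts than in other neurons, against 5.15% (higher) and 17% (lower) of all 12094 genes tested. Besides Il31ra and Osmr, the higher ones were Il13ra1 (log2 fold change 1.66), a chain of the interleukin-13 receptor, and Il17ra (1.73), a chain of the interleukin-17 receptor. Neither was highest in NP_Nts: PEP1_Slc7a3.Sstr2 held 23.5 ± 6.27 CPM of Il13ra1 against an overlapping 16.8 ± 4.95 CPM in NP_Nts, and 27.9 ± 4.09 CPM of Il17ra against 12.2 ± 1.73 CPM. The lower ones were Ifngr1 (-2.38), Tnfrsf1a (-3.22), Cntfr (-3.62) and Il1r1 (-3.23), the receptors for interferon gamma, tumour necrosis factor, ciliary neurotrophic factor and interleukin-1. Il1r1 rested on 10 UMIs in NP_Nts and 879 in other neurons and was not called by DESeq2 (-2.40). Without mouse 2 only 1 of these UMIs was left, with a ratio of pooled CPM of 77.7 (95% interval 13.9 to 3075) in favour of other neurons, and without mouse 4 or 5 Il1r1 was at -2.63 or -2.55. The median of the list was -0.03, beside -0.07 for all genes tested.

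Among 23 JAK-STAT genes tested, 2 were higher and 1 was lower, beside 5.15% and 17% of all genes, so the number of higher genes was close to that over all genes. Socs2, a suppressor of cytokine signalling, was at 637, 618, 756, 748 and 754 CPM against 119 to 169 CPM in other neurons (log2 fold change 2.29, SE 0.13, adjusted p = 8.77e-10), and was also highest of all neuron types in NP_Nts. Socs1, a related suppressor, had a log2 fold change of -1.05 (SE 0.30, adjusted p = 0.0074), with groups that overlapped, and was not called when any of mice 1, 3, 4 or 5 was left out (-0.89 to -1.06). Stat3 (0.58) and Jak2 (0.90) had values above the groups of other neurons in all 5 mice but did not reach 2-fold. The median of the list was 0.48.

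Receptors for serotonin, leukotrienes and other products of immune cells and platelets differed between NP_Nts and other neurons in both directions. Of 30 tested pruritogen receptors, genes for receptors of itch-inducing substances, 8 were higher and 13 lower. Over all genes 5.15% were higher and 17% lower, and the median of the list was -0.56. Htr1f, a serotonin receptor, was at 379, 315, 481, 379 and 358 CPM against 2.45 to 6.56 CPM (log2 fold change 6.69, SE 0.24, adjusted p = 9.93e-12). Cysltr2 was at 102, 67.8, 74.6, 77.9 and 73.7 CPM against 0.689 to 0.963 CPM (6.48, SE 0.14, adjusted p = 1.56e-13). Htr1a, another serotonin receptor, was at 60.7 to 76.3 CPM against 1.26 to 2.63 CPM (4.93). These groups were far apart in every mouse.

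F2rl1, the protease-activated receptor PAR2, had only 5 UMIs in 2647 other neurons but 191 in NP_Nts (log2 fold change 8.12). It was detected in 30.0% of NP_Nts cells, and in 15.7% after thinning. Lpar1 (3.44) and S1pr1 (4.65), receptors for lysophosphatidic acid and sphingosine-1-phosphate, were higher too, and were at 1.89 and 3.12 against all other cells, glia included. Satellite glia had a UMI of Lpar1 in 100% of cells and of S1pr1 in 65.5%, while the summed level of the 12 satellite glia markers was 244 to 674 CPM in NP_Nts and 456 to 676 CPM in other neurons. Of those markers, 7 were tested, none was higher in NP_Nts and 1 was lower, beside 5.15% and 17% of all genes. None of the markers was at 0. F2rl2 (1.38), the receptor PAR3, and Hrh1 (2.82), the histamine receptor that classical antihistamines block, completed the higher ones.

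Among the 13 lower pruritogen receptors were Htr3a (-5.81), the serotonin-gated channel, Ptgdr (-7.07), the prostaglandin D2 receptor, and Lpar3 (-7.18), another receptor for lysophosphatidic acid. Without mouse 5, Htr3a was at -6.58. Htr7 had no UMI in NP_Nts and was at least 27.1-fold lower, against a floor of 3 UMIs over the type. Mrgpra3 (-1.69), the chloroquine receptor, and Mrgprd (-5.34), the beta-alanine receptor, were lower than in the sum of other neurons. Against the mean of the types' log2 levels they were at 3.78 and 0.75, although the mean CPM over the 11 types stayed above NP_Nts in all 5 mice, at 42.9 ± 9.82 against 7.83 ± 3.98 CPM for Mrgpra3 and at 24.2 ± 2.90 against 2.88 ± 2.49 CPM for Mrgprd. Intervals and floors here cover counting error only.

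Shares of cells with a UMI set NP_Nts apart for the same receptors. Thinned to 20000 UMIs, 99.0% of NP_Nts cells held Il31ra, 99.7% held Htr1f, 97.9% held Npy2r and 75.5% held Cysltr2. In other neurons the thinned shares were 2.62%, 4.38%, 6.92% and 1.17%, and in satellite glia 0%, 1.54%, 1.54% and 0%. Without thinning, Cysltr2 was seen in 92.8% of NP_Nts cells.

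**Figure D2:**
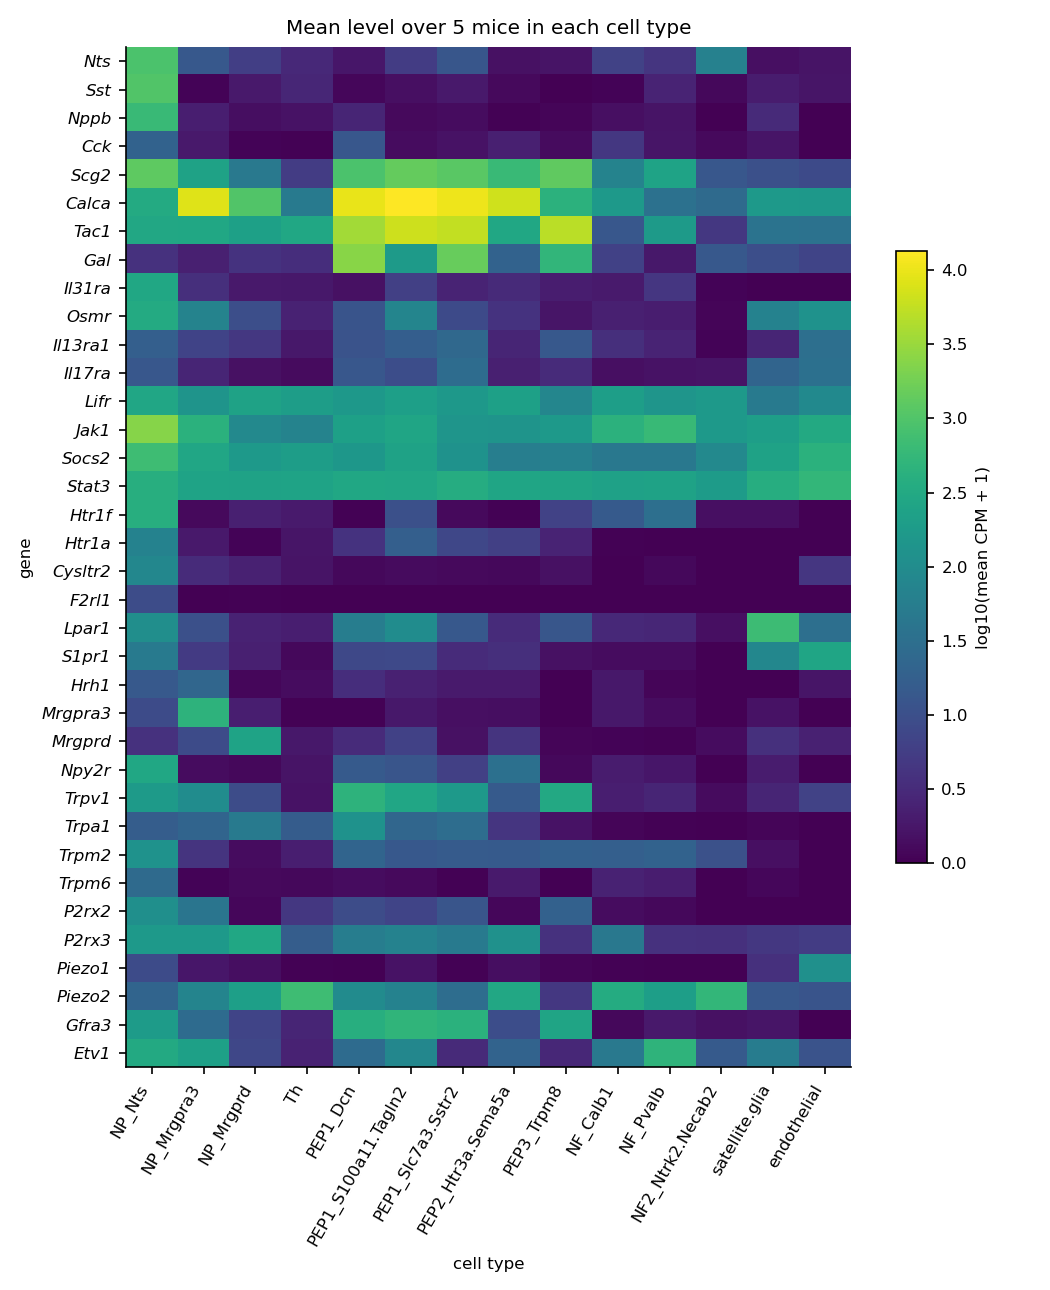
Mean level over 5 mice, as log10(mean CPM + 1) in colour, of 36 genes (rows) in the 12 neuron types, satellite glia and endothelial cells (columns). The NP_Nts column is the brightest for Nts, Sst, Nppb, Il31ra, Osmr, Jak1, Htr1f, Cysltr2 and Npy2r among neuron types, while Etv1 is brightest in NF_Pvalb and Hrh1 in NP_Mrgpra3.

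Neuropeptides other than the itch peptides were mostly low. Of 9 tested, Cck was higher and 7 were lower, beside 5.15% and 17% of all genes, with a median log2 fold change of -3.55. Cck, the gene of cholecystokinin, was at 29.2, 5.69, 14.6, 24.7 and 21.5 CPM against 0.517 to 1.68 CPM (4.38, SE 0.37, adjusted p = 7.4e-08). Calca, the gene of calcitonin gene-related peptide (CGRP), was at 881, 161, 255, 158 and 209 CPM against 2804 to 3694 CPM (-3.42, SE 0.40, adjusted p = 2.56e-06). Mouse 1, with 10 NP_Nts cells, was the high one, and the groups did not overlap. Tac1, the gene of substance P, was at 178 to 502 CPM against 868 to 1312 CPM (-1.98). Against the mean of the types' log2 levels it was at -0.41 and not called, with a mean CPM over the types of 1987 ± 296 against 302 ± 136 CPM. Gal (-6.10), Calcb (-3.55), Adcyap1 (-4.73) and Cartpt (-6.45) were lower as well. Adcyap1 was at -5.86 without mouse 2 and at -3.99 without mouse 4, and Gal at -6.71 without mouse 5.

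For the packaging of peptides, 1 of 17 tested genes was higher and 4 were lower, close to the shares over all genes (5.15% and 17%). Scg2, a granin of dense-core vesicles, was at 1169, 1020, 1444, 1443 and 1325 CPM against 275 to 486 CPM (log2 fold change 1.93, SE 0.15, adjusted p = 3.09e-08), though NP_Nts came only as number 3 of the 12 neuron types. Syt7 (-4.63), a calcium sensor of vesicle release, Scg5 (-1.14) and Chgb (-1.34), further granin-related genes, and Cadps2 (-3.24), a priming factor of dense-core vesicles, were lower. The vesicular glutamate transporters Slc17a6 (-1.67), Slc17a7 (-5.79) and Slc17a8 were all lower, the last with 1 UMI in NP_Nts and 1229 in other neurons. Slc17a7 was at -6.87 without mouse 5.

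Among 14 tested inhibitory and peptide receptors, Npy2r alone was higher and 8 were lower, beside 5.15% and 17% of all genes. Npy2r, a receptor for neuropeptide Y and peptide YY, was at 256, 320, 267, 271 and 306 CPM against 3.69 to 5.75 CPM (log2 fold change 5.89, SE 0.14, adjusted p = 2.32e-13). The next type for it was PEP2_Htr3a.Sema5a, at 32.7 ± 11.9 CPM against 284 ± 27.5 CPM. Oprm1, the mu opioid receptor, had a log2 fold change of 1.85 but a UMI in too few NP_Nts cells for a call. Lower were the cannabinoid receptor Cnr1 (-5.75) and Sort1 (-4.84), a sorting receptor that binds neurotensin. The somatostatin receptor Sstr2 was lower too (-4.82, or -4.04 without mouse 4), on 4 UMIs in NP_Nts. Without mouse 5, 1 UMI was left, with a ratio of pooled CPM of 72.2 (12.9 to 2858) in favour of other neurons. Against the mean of the types' log2 levels Sstr2 was at -0.77 and not called, with a mean CPM over the types of 7.34 ± 1.02 against 0.155 ± 0.215 CPM. Oprk1, the kappa opioid receptor, and Galr1, a galanin receptor, had no UMI in NP_Nts and were at least 13.9-fold and 17.1-fold lower. The median was -3.42, or -2.91 with these genes at their bounds.

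Sensory channels showed both directions. Of 11 TRP channels tested, 3 were higher and 2 lower, beside 5.15% and 17% of all genes, with a median of -0.08. The number of lower ones was thus close to that over all genes. Against the mean of the types' log2 levels, 0 of these 2 were called lower again. Trpv1, the heat and capsaicin channel, was at 186, 217, 179, 149 and 151 CPM against 47.1 to 84.8 CPM (log2 fold change 1.45, SE 0.16, adjusted p = 1.27e-06), and 3 other neuron types were above NP_Nts, PEP1_Dcn at 459 ± 64.7 CPM the highest. Trpm2, a channel opened by oxidants, was at 108 to 140 CPM against 5.69 to 8.56 CPM (4.05), and Trpm6, a magnesium channel, at 16.1 to 32.6 CPM against 0.336 to 0.537 CPM (5.96). NP_Nts was the highest neuron type for both, with no overlap with the next. Trpa1, the irritant channel, was lower (-1.01). Against the mean of the types' log2 levels it was at 2.02 and called higher. The mean CPM over the types, however, was 24.0 ± 7.06 against 15.6 ± 2.15 CPM in NP_Nts, which was the higher in 1 of 5 mice. Leaving out mouse 1, 2, 4 or 5 put it between -0.92 and -0.98, where it was not called.

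Of 16 tested mechanosensitive, acid-sensing and ATP-gated channels, 3 were higher and 7 lower, beside 5.15% and 17% of all genes. P2rx2, an ATP-gated channel, was at 129, 108, 106, 117 and 94.8 CPM against 2.94 to 5.67 CPM (log2 fold change 4.67, SE 0.16, adjusted p = 6.5e-12). The next type, NP_Mrgpra3, had 38.6 ± 8.51 CPM and did not overlap. Piezo1 was higher (4.55, or 2.91 against all other cells, with 6.17 to 9.71 CPM in NP_Nts) and its relative Piezo2, the touch channel, was lower (-3.49). Asic1 (-6.80) and Asic3 (-5.44), acid-sensing channels, were lower.

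The main sodium channels of nociceptors, Scn9a (0.10), Scn10a (0.00) and Scn11a (0.14), were not called against the sum of other neurons. Against the mean of the types' log2 levels, Scn10a was at 1.91 and Scn11a at 2.13, and both were called higher. The mean CPM over the types was 135 ± 8.51 for Scn10a and 99.0 ± 13.97 for Scn11a, against 191 ± 28.3 and 185 ± 32.0 CPM in NP_Nts, which was above it in 5 of 5 mice. Of 12 sodium channel genes tested Scn3b (1.24) was higher and 5 were lower, beside 5.15% and 17% of all genes. Scn1a (-5.82) and Scn8a (-4.31) were among the lower ones. Of 22 tested genes for G proteins, phospholipase C beta and protein kinase C, 4 were higher and 5 lower, beside 5.15% and 17% of all genes. The higher ones were Prkca (1.24), Gna14 (1.15), Gnal (1.09) and Plcb3 (1.02). Plcb3 was at 0.94 without mouse 3 and then not called. Among the 5 lower were Prkcb (-6.14), Plcb1 (-4.19) and Prkcq (-5.53), the last at 0.06 against the mean of the types' log2 levels, with a mean CPM over the types of 14 ± 1.19 against 1.33 ± 1.14 CPM.

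Of 10 growth factor receptors tested, 1 was higher and 7 were lower, beside 5.15% and 17% of all genes, with a median of -2.72. Gfra3, the artemin receptor, was the higher one, at 180, 332, 176, 82.3 and 139 CPM against 63.7 to 102 CPM (log2 fold change 1.10, SE 0.27, adjusted p = 0.00256). Its groups overlapped, and it was at 0.73 without mouse 2 and at 0.996 with the mouse as a replicate block, each of which ends the call. Ngfr (-4.15), Gfra2 (-6.50) and Ntrk2 (-4.81, or -5.40 without mouse 2) were among the lower ones. Of 33 transcription factors tested, Etv1 was higher and 16 were lower, beside 5.15% and 17% of all genes, with a median of -0.84. Against the mean of the types' log2 levels, 8 of these 16 were called lower again. Another 3 had the opposite sign there, and none of them was called. Etv1, a factor of the ETS family, was at 341, 294, 297, 357 and 313 CPM against 36.0 to 49.7 CPM (2.85, SE 0.11, adjusted p = 2.6e-11). Only NF_Pvalb was above it, at 488 ± 78.9 CPM.

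The neurofilament genes Nefl (-3.55), Nefm (-3.40) and Nefh (-3.98), which mark large myelinated neurons, were lower. Of the 11 genes of that class 9 were lower and 1 was higher, beside 17% and 5.15% of all genes. Necab2 (1.43), a calcium-binding protein, was the exception. Of 9 pan-neuronal genes 8 were not called, and Syt1 was lower (-1.05), beside 17% of all genes. Syt1 was under 2-fold and not called without mouse 2 or mouse 4 (-0.96 without mouse 4), without the deepest cells (-0.98), against all other cells, and against the mean of the types' log2 levels (-0.63).

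**Figure D3:**
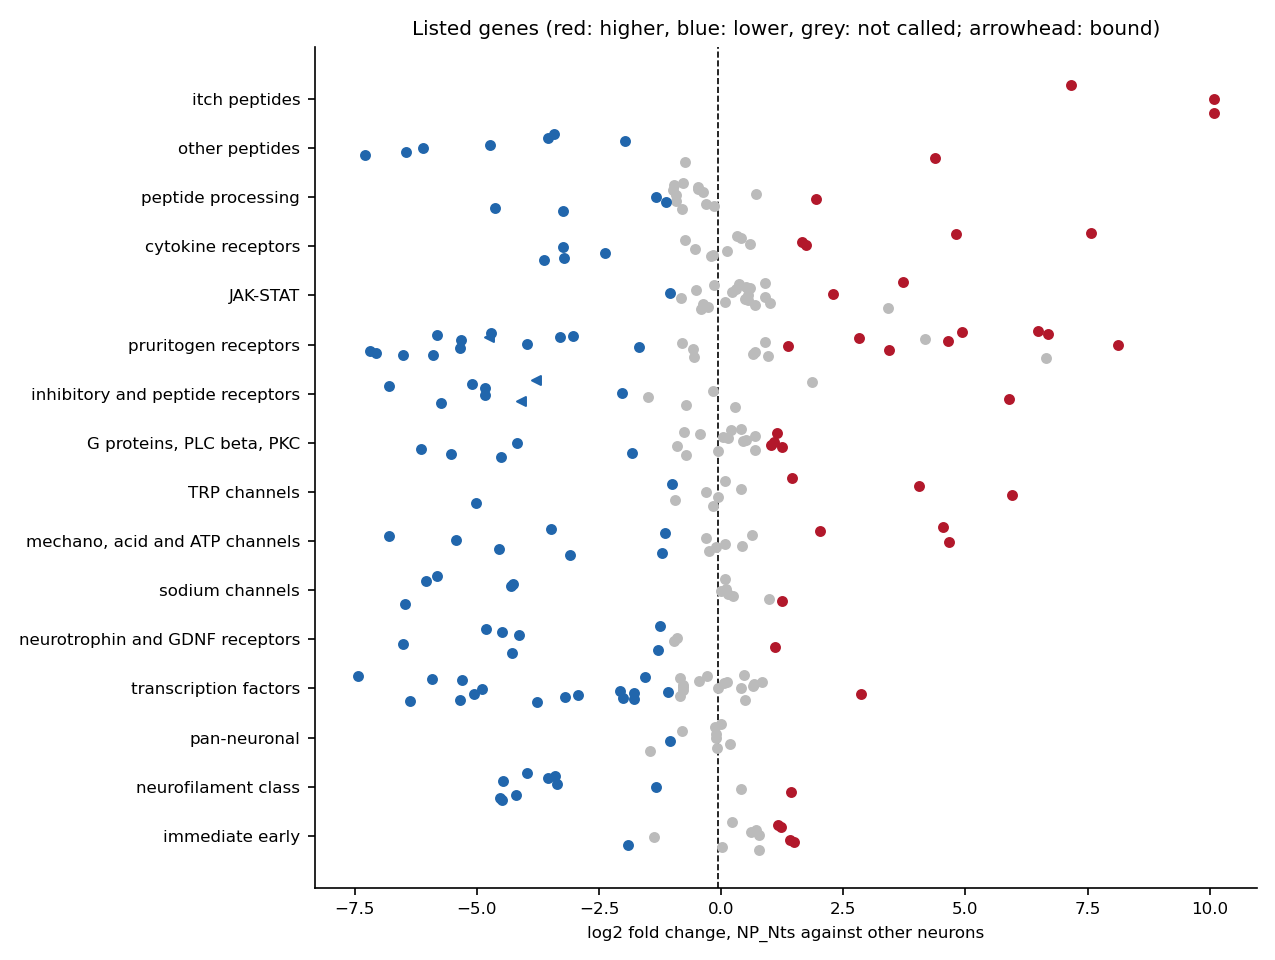
Log2 fold change of the tested genes of 16 lists between NP_Nts and all other neurons, 1 point per gene, with arrowheads where a gene without UMIs in NP_Nts gives only a bound and a dashed line at the median of all genes tested, -0.07. The itch peptides lie far to the right, other peptides and growth factor receptors mostly to the left, and the pruritogen and cytokine receptors on both sides.

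Over all genes, 623 were higher and 2060 lower in NP_Nts than in other neurons. Against the mean of the types' log2 levels the numbers were 926 and 1385. Of the 623 higher genes 586 were kept in it, which made up 63.3% of the 926. Of the 2060 lower genes 1337 (64.9%) were kept. Of the 39 listed genes called higher, 38 could be tested in that way and all 38 were called in the same direction. Of the 99 listed genes called lower, 98 could be tested, 63 were called lower again, and 9 had the opposite sign. Among these 9, Trpa1 and Cd55 were called higher. Of the 104 genes whose values are given for this comparison, 67 moved by more than 1.5-fold in it, all of them upwards. By the mean CPM over the types, all 39 listed genes called higher were above it in NP_Nts and 98 of the 99 called lower were below it, with Cd55 as the exception. The calls and this mean use the same cells, so the count is no separate support. It was not made for all called genes.

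The largest increases included genes outside the lists. 9230105E05Rik was at 73.1, 78.8, 68.8, 147 and 304 CPM in NP_Nts and at 0 to 0.517 CPM in other neurons (log2 fold change 8.84, SE 0.60), with mice 4 and 5 above the others. Without the 7 other cells that hold the peptide set it was at 10.52. Gm525 was at 485, 335, 699, 740 and 683 CPM against 2.28 to 3.86 CPM (7.63, SE 0.25), and its next neuron type was PEP1_Dcn at 61.8 ± 53.2 CPM. Bmp8a (8.32), a bone morphogenetic protein, Pla2g12b (7.62, or 8.30 without mouse 4), a member of the phospholipase A2 family, Fetub (7.40), the gene of fetuin-B, and Ildr2 (6.92) were also higher. Gper1 (6.62), the G protein-coupled oestrogen receptor, Krt14 (6.61), a keratin, and Gpat2 (6.56), an acyltransferase, followed.

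Among genes with at least 50 CPM in other neurons, the largest decrease was in P2ry1, an ADP receptor with 10790 UMIs in other neurons and none in NP_Nts, so at least 388-fold lower. Kcnd3 (-8.14, or -7.54 without mouse 4), a potassium channel subunit, followed. Its 4 UMIs in NP_Nts were all in mouse 5, and without that mouse it was at least 237-fold lower. Next came Grik1 (-7.60), a kainate receptor subunit, Lingo1 (-7.53), Casz1 (-7.50), a zinc finger factor, Sorl1 (-7.43), Hoxb5 (-7.25), Cntn1 (-7.24), Lpar3 (-7.18) and Rph3a (-6.96), a vesicle protein.

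Against NP_Mrgpra3, the other itch type, 668 genes were higher (7.39% of 9035 tested) and 692 lower (7.66%) in NP_Nts. Of the 4 listed itch peptides, the 3 tested were higher. Grp, which was not tested, went the other way, with 1 UMI in NP_Nts and 28 in NP_Mrgpra3, a ratio of pooled CPM of 62.5 (95% interval 10.3 to 2556) in favour of NP_Mrgpra3. Nppb was at 0 to 2.22 CPM in NP_Mrgpra3 (log2 fold change 8.80), and Nts at 0 to 53.9 CPM, the highest again in mouse 2 (6.20, or 7.92 without that mouse). Sst had 1 UMI in 104 NP_Mrgpra3 cells, which puts the ratio of pooled CPM at 11970 (95% interval 2148 to 472800). Calca went the other way: it was at 6470 to 10512 CPM in NP_Mrgpra3 (-4.88, SE 0.40, adjusted p = 9.5e-09), and was at -5.52 without mouse 1.

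Both itch types held the Il31ra partner and kinase, at different levels. Osmr was at 57.4 to 94.0 CPM in NP_Mrgpra3 (log2 fold change 2.24, SE 0.12), Jak1 at 348 to 521 CPM (2.42, SE 0.11) and Il31ra at 1.26 to 3.92 CPM (6.93, SE 0.19). In every mouse NP_Nts was higher, without overlap. Of 18 JAK-STAT genes tested 4 were higher and none lower, beside 7.39% and 7.66% of all genes. Among the higher ones were Socs3 (1.70), at 89.2 to 128 CPM against 23.4 to 40.6 CPM, and Socs2 (1.26).

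Serotonin receptors differed between the itch types in both directions, while the levels of the histamine receptor Hrh1 overlapped. Hrh1 was at 20.5, 14.2, 11.9, 12.6 and 7.10 CPM in NP_Nts and at 9.79, 28.8, 28.4, 21.1 and 23.1 CPM in NP_Mrgpra3, lower in NP_Nts in 4 of 5 mice (log2 fold change -1.12, SE 0.25, adjusted p = 0.0012). The mouse that went the other way was mouse 1, with 4 NP_Mrgpra3 cells, and without mouse 5 the value was -0.89, under 2-fold. Htr1f and Npy2r had 3 UMIs each in NP_Mrgpra3, with ratios of pooled CPM of 1192 (408 to 5782) and 922 (316 to 4474). Htr1a (7.07) and Cysltr2 (6.16) were higher in NP_Nts, whereas the subunits Htr3a (-5.57) and Htr3b (-3.97) of the serotonin-gated channel were lower. Without mouse 1, NP_Mrgpra3 had 2 UMIs of Htr1a, with a ratio of pooled CPM of 312 (86.1 to 2576). Cysltr2 was at 6.85 without mouse 1 and at 5.40 without mouse 5.

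Mrgpra3 itself was not absent from NP_Nts. It was at 13.2, 6.17, 3.53, 10.8 and 5.55 CPM there and at 370 to 611 CPM in NP_Mrgpra3 (log2 fold change -6.09, SE 0.24), and 24.2% of NP_Nts cells had a UMI of it, or 13.4% after thinning. Satellite glia had one in 1.61% of cells, or 1.54% after thinning, and NP_Mrgprd in 2.14% after thinning. Mrgprd, by contrast, was seen in 5.00% of NP_Nts cells and in 4.82% of satellite glia, or in 2.06% and 3.08% after thinning, so its share was not above that in glia. A single NP_Nts cell held 18 of its 54 UMIs.

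Of 16 pruritogen receptors tested against NP_Mrgpra3, 6 were higher and 6 lower, beside 7.39% and 7.66% of all genes. Trpv1 was at 88.1 to 136 CPM in NP_Mrgpra3, below NP_Nts in all 5 mice without overlap, but at 0.68 it did not reach 2-fold. P2rx2 was at 28.8 to 49.4 CPM there (1.33, SE 0.14). Kcnk2, a mechanosensitive potassium channel, was at 8.77 to 22.1 CPM in NP_Nts against 0 to 4.43 CPM (3.86, or 4.64 without mouse 2). Among the growth factor receptors, Ngfr (-2.75), Gfra1 (-2.89) and Ret were lower, the last of which was at the limit of 2-fold and not called without mouse 1, 3 or 4 (-0.94 to -0.99), while Gfra3 was higher (2.64). Runx1 (1.52), a factor of nociceptor development, was higher.

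Outside the lists, Gm525 had 3 UMIs and 9230105E05Rik 1 UMI in NP_Mrgpra3, with ratios of 2111 (722 to 10240) and 1871 (336 to 73910) in favour of NP_Nts. Kank2 and Gper1 had no UMI in NP_Mrgpra3 and were at least 86.0-fold and 68.7-fold higher in NP_Nts. Lower were Nrp1 (-7.68), a semaphorin and VEGF receptor, at 0 to 0.949 CPM against 95.9 to 181 CPM, Klhdc8a (-7.47), Prkar2b (-7.01), a regulatory subunit of protein kinase A, and Casz1 (-6.91). Rgs5 and Ovol2 had 3 UMIs each in NP_Nts, with levels in NP_Mrgpra3 greater by ratios of 488 (166 to 2370) and 471 (160 to 2291).

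Against NP_Mrgprd, the most frequent neuron type, 981 genes were higher (8.94% of 10968 tested) and 1017 lower (9.27%). Nppb (log2 fold change 9.86), Sst (9.47) and Nts (7.22) were higher, as were Il31ra (8.02), Osmr (5.27) and Jak1 (4.65). Without the cells that hold the peptide set, Nppb was at 11.27, Sst at 11.48 and Il31ra at 8.68, and Nts was at 8.18 without mouse 2. Because those cells were chosen for their peptides, the rise of Nppb and Sst was set by the choice. Jak1 was at 72.6 to 120 CPM in NP_Mrgprd. Of 23 JAK-STAT genes tested, 8 were higher and none lower, Jak2 (1.49), Pias3 (1.78), Socs4 (1.36) and Cish (1.57) among them, with a median of 0.57 beside 0.02 for all genes tested.

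Of 26 pruritogen receptors tested against NP_Mrgprd, 10 were higher and 7 lower, beside 8.94% and 9.27% of all genes, with a median of 1.55. Htr1a (8.23), Htr1f (8.20), F2rl1 (6.93), Lpar1 (5.99), Cysltr2 (5.60), Hrh1 (5.57) and Ptgir (5.18), the prostacyclin receptor, were among the higher ones. Htr1a was at 9.19 without mouse 5. Mrgprd was at 1.32 to 7.12 CPM in NP_Nts against 220 to 286 CPM (-6.67, SE 0.24), and Lpar3 (-8.44) and Ptgdr (-7.93) were lower too.

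Trpv1 and P2rx2 divided these types in every mouse. Trpv1 was at 3.74 to 14.2 CPM in NP_Mrgprd against 149 to 217 CPM in NP_Nts (log2 fold change 4.28, SE 0.25, adjusted p = 2.75e-10). P2rx2 was at 0 to 0.478 CPM against 94.8 to 129 CPM (8.45, SE 0.24), or at 9.75 without mouse 5. Trpa1, in contrast, was lower in NP_Nts (-1.76). Etv1 was at 3.98 to 9.36 CPM in NP_Mrgprd (5.50). Calca was lower in NP_Nts in all 5 mice (-1.85, SE 0.36, adjusted p = 0.000309), although mouse 1 of NP_Nts overlapped the range of 808 to 1182 CPM, and was at -2.47 without mouse 1. Npy2r (9.47), Gm525 (9.20) and 1700011L22Rik (8.80) were among the largest increases. Npy2r was at 11.21 and Gm525 at 10.94 without the cells that hold the peptide set, and without mouse 4 Gm525 was at 9.81 and 1700011L22Rik at 9.70. Tekt5 had no UMI in NP_Mrgprd and was at least 238-fold higher, and Grik1 (-8.76), Otoa (-8.50), Cdh1 (-8.45), Lpar3 (-8.44), Cdk15 (-8.40) and Agtr1a (-8.15) were the largest decreases among genes with at least 50 CPM in NP_Mrgprd. Cdk15 was at -7.70 without mouse 5. With 2 UMIs left in NP_Nts, Cdk15 without mouse 2 and Agtr1a without mouse 5 gave ratios of pooled CPM of 543 (150 to 4485) and 471 (130 to 3887) in favour of NP_Mrgprd. All 7 called genes of the 9 in the non-peptidergic class list were lower, beside 9.27% of all genes. Among them were Gfra2 (-7.32), Cd55 (-2.47) and Ret (-1.30). The list holds Mrgprd, which names the other type, so that gene's direction was given by the label. Against other neurons, 5 of the 9 listed genes were lower and 0 higher, beside 17% and 5.15% of all genes. With equal weight of types, 3 of these 5 were called lower again. Against NP_Mrgpra3, 4 of 6 tested were lower and 0 higher, beside 7.66% and 7.39%. Against the sum of other neurons Cd55 was lower as well (-1.34). Against the mean of the types' log2 levels it was at 1.26 and called higher. The mean CPM of Cd55 over the types was 86.3 ± 7.46, against 87.5 ± 20.8 CPM in NP_Nts.

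**Figure D4:**
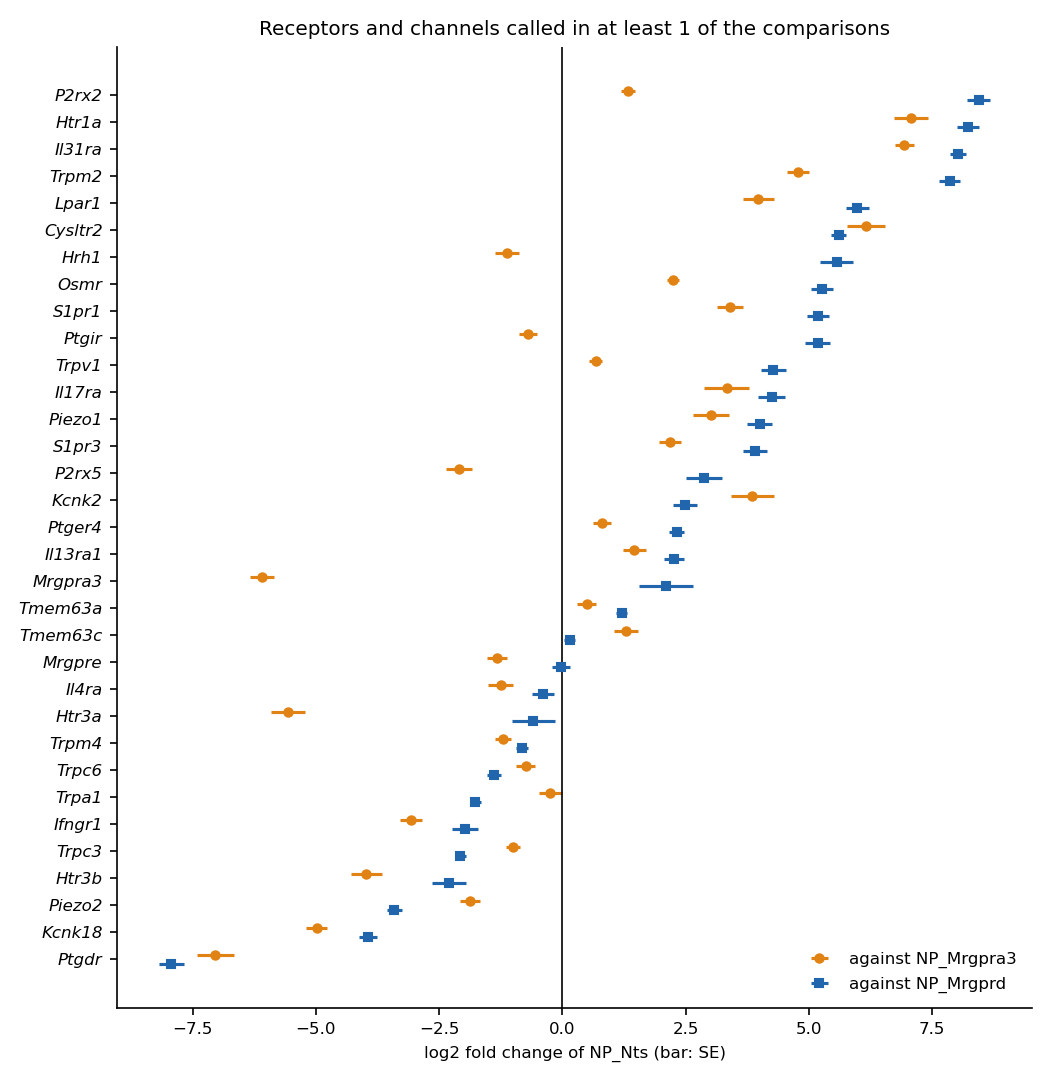
Log2 fold change with its SE of NP_Nts against NP_Mrgpra3 (circles) and against NP_Mrgprd (squares), for tested cytokine and pruritogen receptors and sensory channels with more than 3 UMIs in each group and a call in at least 1 comparison. Il31ra lies at 6.93 and 8.02, and Hrh1 lies left of 0 against NP_Mrgpra3 (-1.12) and right of it against NP_Mrgprd (5.57). Both comparisons share the NP_Nts samples.

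Some immediate early genes were higher in NP_Nts than in other neurons. Of 12 tested, Atf3 (log2 fold change 1.49), Ier2 (1.40), Jun (1.23) and Fosb (1.16) were higher and Arc (-1.90) was lower. Over all genes 5.15% were higher and 17% lower, and the median of the list was 0.74. Ier2 was not called against all other cells (0.95), and Arc was not called without mouse 5 (-1.53) or against the mean of the types' log2 levels (-1.5). Atf3, a factor induced by nerve injury and stress, was at 436, 487, 477, 239 and 209 CPM against 108 to 147 CPM. Jun was at 634 to 966 CPM against 265 to 380 CPM. Fos, at 443, 364, 360, 244 and 192 CPM against 234 to 319 CPM, overlapped and was not called (0.22). The summed level of the list was 2583 to 3695 CPM in NP_Nts against 1624 to 1844 CPM in other neurons, 1487 to 1822 CPM in NP_Mrgpra3, 1302 to 1677 CPM in NP_Mrgprd and 4306 to 6835 CPM in satellite glia. The part of tissue handling in these levels, and of these genes in the other differences, was not tested.

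NP_Nts cells held fewer UMIs than cells of the related types. The mean over mice of the median UMIs per cell was 58235 in NP_Nts, 109223 in NP_Mrgpra3, 114036 in NP_Mrgprd and 73097 in all other neurons. NP_Nts was the lower in 5 of 5 mice in each comparison (exact sign-flip permutation test, two-sided p = 0.0625, the smallest that 5 mice allow). Cell size and capture cannot be told apart here, and CPM gives a gene's share of the UMIs of a type, not its molecules per cell.

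The share of neurons that were NP_Nts varied between mice. It was 7.04% (10 of 142 neurons), 7.66% (36 of 470), 10.8% (41 of 378), 18.2% (130 of 716) and 13.6% (183 of 1341) in mice 1 to 5, or 11.5% ± 4.58 (SD, n = 5). Exact Clopper-Pearson 95% intervals ran from 3.43% to 12.6% in mouse 1, from 5.42% to 10.4% in mouse 2 and from 15.4% to 21.2% in mouse 4. Those of mice 1 and 2 did not overlap that of mouse 4, but the intervals cover counting error only, and each mouse gave 1 library. By frequency NP_Nts was number 2 of the 12 neuron types in mice 4 and 5, number 3 in mouse 3, number 5 in mouse 2 and number 6 in mouse 1. Survival of dissociation and the number of neurons in the ganglion cannot be told apart in these shares.

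**Figure D5:**
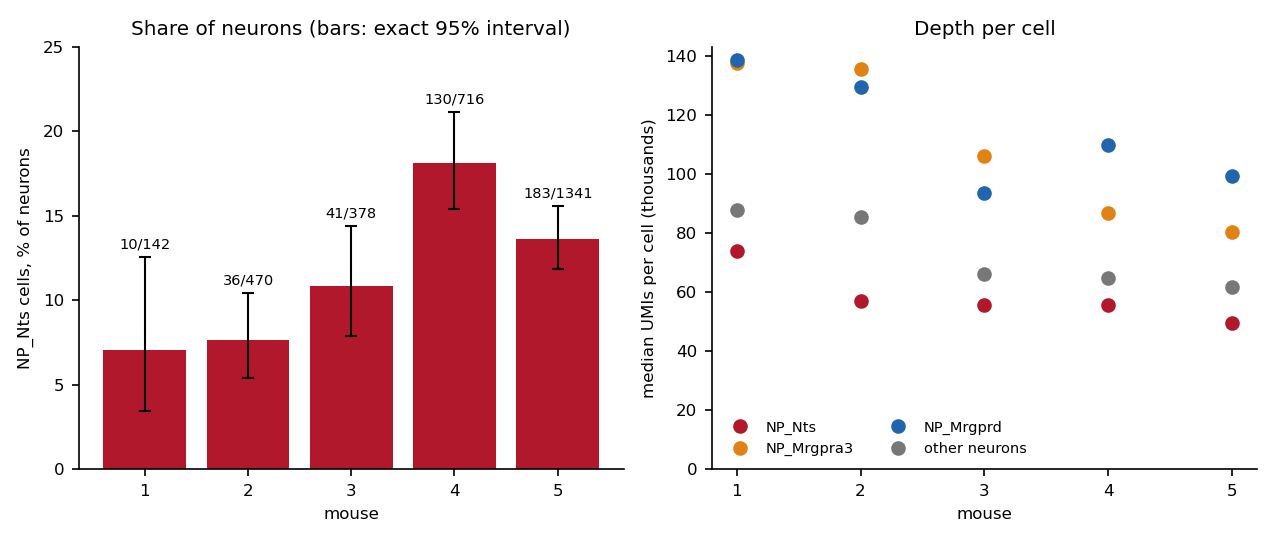
Left, NP_Nts cells as a percentage of neurons in each mouse, with exact 95% intervals and the cell numbers above the bars. Right, median UMIs per cell in units of 1000 in each mouse for NP_Nts, NP_Mrgpra3, NP_Mrgprd and all other neurons, with NP_Nts the lowest of the groups in every mouse.

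Markers of non-neuronal cells gave low sums in NP_Nts. The 8 Schwann cell markers summed to 208 to 400 CPM against 569 to 661 CPM in other neurons. Of 7 tested, Drp2 (1.88) was higher and 3 were lower, beside 5.15% and 17% of all genes. Endothelial markers summed to 4.97 to 12.8 CPM with Kdr and Cdh5 at 0, fibroblast markers to 0 to 3.09 CPM with Col1a1 and Pdgfra at 0, and macrophage markers to 1.46 to 5.39 CPM with Csf1r and Ptprc at 0.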

How the data were processed

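The authors aligned and counted the Chromium 3′ libraries with Cell Ranger on mm10 and deposited raw UMI counts per gene and cell. They filtered, integrated and clustered the cells with Seurat. The deposited annotation gives 1 type per cell and was used unchanged. The filters on genes and mitochondrial share are theirs, and no cell was removed here, although 188 of 3352 cells (3 of them NP_Nts) exceeded a mitochondrial share of 10%. No doublet caller was run. The 4 rows that name no mouse gene held 6.4e-05% of UMIs and were left out of library sizes and tests.

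UMIs were summed per type and mouse and tested with edgeR 4.0.16 in R 4.3.3 (filterByExpr, TMM, quasi-likelihood test, Benjamini-Hochberg adjustment over all genes tested), without a term for the mouse, on 5 sums against 5. The step was tested on simulated data first. Sums of both groups come from the same mice: after the group means were removed, the sums of a mouse correlated across genes at 0.122 to 0.436 with other neurons, 0.0309 to 0.244 with NP_Mrgpra3 and 0.163 to 0.454 with NP_Mrgprd. A fit with the mouse as a block was an alternative, as were DESeq2 1.42.0, other filters, other sets of cells, equal weight of types (the mean of their log2 levels in the fit) and leaving out each mouse.

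The type and the lists of genes were chosen with earlier results of these data known. Genes outside the lists were named by rank of fold change among those called and changed the same way in 5 of 5 mice, the 15 highest and 10 lowest against other neurons and 6 in each direction against the other types, with at least 50 CPM in the other group for the lowest. Other genes given with values were chosen from the lists after their values were seen. Genes with 0 UMIs in a group were given a bound from 3 UMIs over that group, and with 1 to 3 UMIs the ratio of pooled CPM with its exact 95% interval. The deposited rows give chromosome and strand, and starts and ends are those of RefSeq genes on GRCm38.p6. With a 3′ assay, transcript forms were not separated. The values of 1 listed gene are not reported here.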

Additional observations from a re-analysis of the deposited data

Results flagged for a closer look

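Among 5 mice, 1 value can lie apart from the other 4 by more than Dixon's 95% limit, which chance gives in about 1 in 20 sets. Of 125 sets tested for the genes named here, 12 held such a value, 6 of them in mouse 1 and 4 in mouse 2. In mouse 1, with 10 NP_Nts cells, Calca stood at 881 CPM (the others at 158 to 255), Gfra2 at 2.92, Sorl1 at 2.92, Klhdc8a at 4.38, Prkar2b at 5.85 and, on the low side, Kcnk2 at 8.77 CPM (20.9 to 22.1). In mouse 2, Adcyap1 stood at 12.8 CPM (0 to 2.11), Il17ra at 15.2, Il1r1 at 4.27 and, on the low side, Fetub at 12.3 CPM. In mouse 5, Htr1a stood at 76.3 CPM (60.7 to 64.9) and Kcnd3 at 0.444 CPM, with the others at 0.

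Among the 4 rows of the deposited counts that name no mouse gene, the one named EC18 held 12 UMIs in NP_Nts cells, 1 each in 12 cells, out of 86 UMIs in all.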

How the results depend on the processing

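No alternative moved the number of genes called by 1.5 times or more. The mean of the types' log2 levels came closest to it, and kept 94.1% of the higher and 64.9% of the lower calls against other neurons. Leaving out each mouse gave 642 to 681 higher and 1922 to 2159 lower against other neurons, 582 to 709 and 616 to 743 against NP_Mrgpra3, and 964 to 1010 and 997 to 1038 against NP_Mrgprd. With the mouse as a replicate block the numbers were 626 and 2069, 679 and 696, and 994 and 1033. The block ended the call of Gfra3 (0.996) and no other call of a named gene, and Scn10a, near 0, changed sign in it (-0.0037) and lay between -0.0082 and 0.086 over the mice left out, at -0.0082 without mouse 2. DESeq2 gave 623 and 2043, 629 and 689, and 923 and 1055, and Socs1 and Il1r1 were no longer called. The mean of the log2 levels of the other neuron types, 926 and 1385, turned the sign of Mrgpra3 (3.78), Mrgprd (0.75), Prkcq (0.061), Trpa1 (2.02) and Cd55 (1.26). Of these, Trpa1 and Cd55 were called higher there. The mean of the types' CPM, chosen after seeing the data, turned the sign of Cd55 (0.020) and of no other called gene named here. Thinning to 20000 UMIs moved the share of NP_Nts cells with a UMI to 98.2% for Nts, 99.2% for Nppb, 99.0% for Il31ra, 97.9% for Npy2r and 75.5% for Cysltr2. Over the mice left out, Il31ra and Npy2r each ranged from 99.6% to 100%, the latter without mouse 5. The mean share of neurons lay between 9.80% and 12.6% over the mice left out. Depth limits the genes seen in few cells, and mouse 1 rests on 10 NP_Nts cells.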
